A study of Homo sapiens with 12 samples.

Results

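RNA immunoprecipitation followed by sequencing (RIP-seq) pulls a protein down with an antibody, sequences the bound RNA and compares it with an input library made from the unselected RNA. A peak is a stretch of exonic RNA in which the immunoprecipitated library held more reads than the input. Peaks were studied here that lay wholly within the protein coding sequence and within a single exon. A peak was taken when it had 1 exonic block, when all of its bases fell in the coding sequence of the Ensembl canonical transcript of its gene on the same strand (GENCODE release 44, GRCh38), and when it touched neither the start nor the stop codon. Of 101848 peaks in 6 lists, 17976 met this rule, which is 17.6%, and they lay on 5557 genes. They are called coding-only peaks below.

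All samples came from HepG2 cells, an established line of human liver cancer. Stable lines carried 3XFlag-METTL16 in the pmiRNA1 vector, or 3XFlag-eIF3a or 3XFlag-eIF3b in pSIN4, so each protein was overexpressed in addition to its endogenous copy. Ultraviolet light was used to cross-link RNA to protein in the living cells. For each of the 3 proteins there were 2 RIP samples and 2 inputs, 12 samples in all. By the labels, METTL16 and eIF3b were pulled down through the Flag tag, and eIF3a with an antibody to the protein itself, so that antibody and protein cannot be told apart for eIF3a. The deposited lists are named for Flag in all 6 cases, which conflicts with that label, and the labels were followed here. Whether each stable line was 1 clone was not given in the sources used here, and no control antibody was analysed.

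METTL16 is an RNA methyltransferase that places N6-methyladenosine (m6A) on U6 small nuclear RNA and on hairpins of the MAT2A mRNA. eIF3a and eIF3b belong to eukaryotic translation initiation factor 3, the large complex that helps the small ribosomal subunit engage mRNA. Messenger RNA is read by ribosomes through its coding sequence from start to stop codon, and most coding exons of human genes are short, with a minority of very long ones.

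The strongest coding-only peaks found in every list are shown first as sequence. For each of the 5 loci with the highest geometric mean fold enrichment among loci with overlapping coding-only peaks in all 6 lists, up to 200 bases around the centre are printed 5′ to 3′ on the transcript strand from GRCh38. Capitals mark the bases that lay under a peak in all 6 lists.

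IRX5, exon 3, chr16:54933504-54933703, plus strand: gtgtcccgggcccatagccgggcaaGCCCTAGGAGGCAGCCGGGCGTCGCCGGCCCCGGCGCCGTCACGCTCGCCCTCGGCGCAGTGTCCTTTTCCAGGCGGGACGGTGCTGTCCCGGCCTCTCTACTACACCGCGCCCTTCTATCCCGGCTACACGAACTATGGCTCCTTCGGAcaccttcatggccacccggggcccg

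MSANTD1, exon 1, chr4:3249268-3249467, plus strand: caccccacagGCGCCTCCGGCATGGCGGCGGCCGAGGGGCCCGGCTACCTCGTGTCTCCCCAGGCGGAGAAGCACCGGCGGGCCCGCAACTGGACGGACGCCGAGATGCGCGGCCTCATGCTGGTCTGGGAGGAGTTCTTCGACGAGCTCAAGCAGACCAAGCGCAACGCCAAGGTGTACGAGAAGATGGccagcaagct

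ADRA1B, exon 2, chr5:159972021-159972220, plus strand: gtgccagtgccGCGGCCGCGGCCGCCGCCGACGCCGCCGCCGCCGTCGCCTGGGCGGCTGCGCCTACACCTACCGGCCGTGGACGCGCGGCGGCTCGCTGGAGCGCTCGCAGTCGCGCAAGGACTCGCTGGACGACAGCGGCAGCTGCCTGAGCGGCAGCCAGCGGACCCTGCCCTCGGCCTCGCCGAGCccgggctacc

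NES, exon 4, chr1:156670142-156670341, minus strand: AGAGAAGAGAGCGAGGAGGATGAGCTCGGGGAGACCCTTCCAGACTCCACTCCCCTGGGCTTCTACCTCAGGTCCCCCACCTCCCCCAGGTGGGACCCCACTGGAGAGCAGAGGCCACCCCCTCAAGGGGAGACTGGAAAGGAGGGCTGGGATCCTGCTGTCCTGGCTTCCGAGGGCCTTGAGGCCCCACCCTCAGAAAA

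AMOT, exon 12, chrX:112780915-112781114, minus strand: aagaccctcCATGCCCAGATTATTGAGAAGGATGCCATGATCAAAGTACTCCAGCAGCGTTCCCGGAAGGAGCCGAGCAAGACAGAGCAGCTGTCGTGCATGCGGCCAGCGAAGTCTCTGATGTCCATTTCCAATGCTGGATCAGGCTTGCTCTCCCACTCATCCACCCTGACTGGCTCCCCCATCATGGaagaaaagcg

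In these stretches, GC content was 71% in IRX5, 68.5% in MSANTD1, 79.5% in ADRA1B, 64.5% in NES and 55% in AMOT. The ADRA1B stretch held the hexamer GCCGCC 3 times without overlap. MSANTD1 and NES held GGAGGA 1 time each. AMOT held GAAGAA 1 time, at the edge of the shared bases, with only its opening G in capitals. The shared bases ran over 150 bases in IRX5, 180 in MSANTD1, 179 in ADRA1B, 329 in NES and 181 in AMOT.

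The share of coding-only peaks was highest for METTL16. In METTL16 replicates 1 and 2, 2528 of 13199 and 2786 of 13136 peaks were coding-only, which is 19.2% and 21.2%. In eIF3a, they numbered 3911 of 21733 and 1926 of 12921, or 18% and 14.9%. In eIF3b, they numbered 3369 of 20832 and 3456 of 20027, or 16.17% and 17.3%. Both METTL16 lists lay above the other 4. METTL16 had a mean share of 20.2% ± 1.45 (SD, n = 2 lists), eIF3a one of 16.5% ± 2.18 and eIF3b one of 16.7% ± 0.767. The difference of 3.73 percentage points between METTL16 and eIF3a and that of 3.47 between METTL16 and eIF3b each gave p = 0.333 in an exact two-sided permutation test, the smallest p that 2 lists against 2 allow. Without eIF3a replicate 2 the difference from eIF3a was 2.19 points, and among peaks with a fold of at least 4 the 2 differences were 6.32 and 5.68 points. Among peaks of 1 block, those wholly in the 3′ UTR were the more frequent kind in 5 of 6 lists, with METTL16 replicate 2 as the exception.

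**Figure D1:**
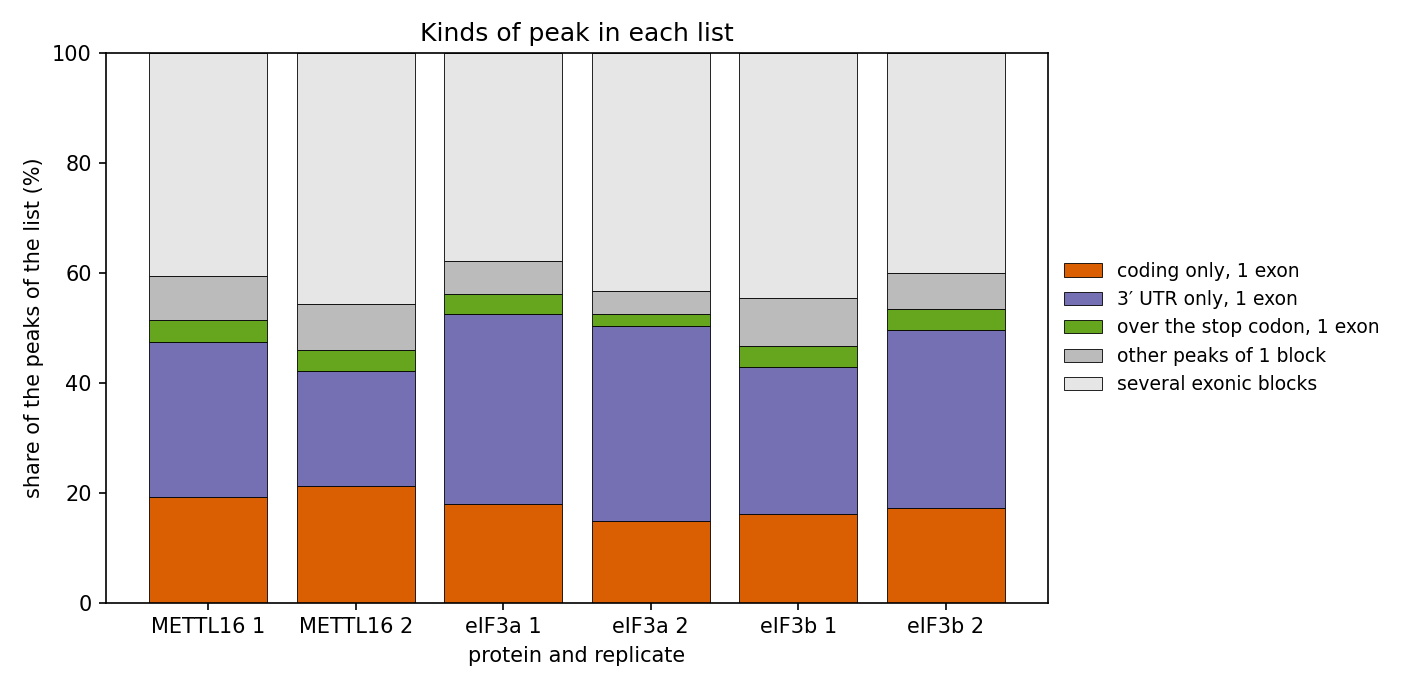
Share of the peaks of each list, in percent, that were coding-only within 1 exon, wholly in the 3′ UTR within 1 exon, over the stop codon within 1 exon, of another kind with 1 block, or of several exonic blocks. Coding-only peaks made up between 14.9% and 21.2% of a list.

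The label was checked against the annotation. Between 13.0% and 15.2% of the coding-only peaks per list overlapped an exon of another protein coding transcript of the same gene in which they were not wholly coding. Between 0.752% and 1.28% overlapped an exon of a coding gene on the opposite strand. The library kit keeps strand, but whether reads were counted by strand was not given in the sources used here, so reads of such pairs of genes cannot be told apart. In addition, 31 genes of liver plasma proteins were looked up. Between 16 and 20 of them carried a peak of any kind in 5 lists, against 4 in eIF3a replicate 2. A peak reports enrichment over input and not the level of an mRNA, so its absence says nothing about expression. These counts therefore do not check the cell type, and no share over all genes was set beside them.

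At the 5 loci printed above, replicates of the same protein lay far apart in several cases. IRX5, a homeobox transcription factor, had folds of 7.28 and 10.7 in METTL16, 42.2 and 8.57 in eIF3a and 35 and 46.2 in eIF3b. The eIF3b lists and 1 eIF3a list were high, and the other 3 lists were low. MSANTD1 had 22.2 and 30.6 in METTL16, 23.1 and 14.7 in eIF3a and 7.45 and 13.2 in eIF3b. Here the METTL16 lists did not overlap those of eIF3b. ADRA1B, the alpha-1B adrenergic receptor, had 26.6 and 16.7 in METTL16, 14.4 and 12.2 in eIF3a and 13.5 and 18.9 in eIF3b, so METTL16 and eIF3b overlapped. NES, which encodes the intermediate filament protein nestin, had 36.2 and 17.4, 13.3 and 3.59, and 20.4 and 12 in the same order. AMOT, the Hippo pathway scaffold angiomotin, had 17.2 and 7.62, 59.5 and 10.4, and 9.06 and 8.07. Its peak had the same width of 181 bases in each of the 6 lists, within an exon of 233 coding bases, whereas the NES peaks were between 329 and 2062 bases wide. The reads behind each fold are unknown, so no interval can be given for a single peak, and these loci were ranked by the fold itself, which makes the values a description.

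**Figure D2:**
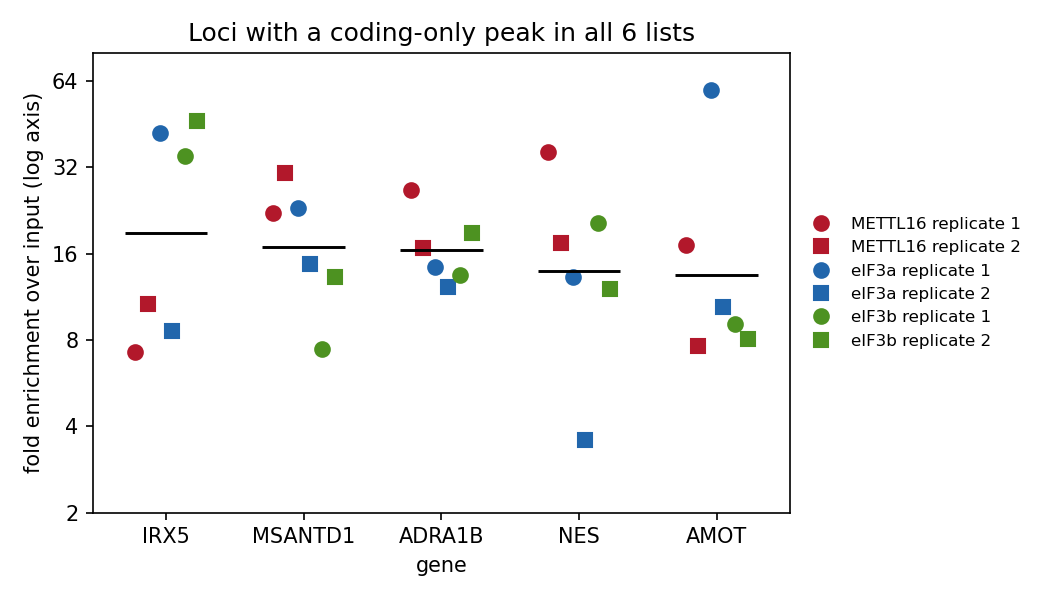
Fold enrichment over input, on a log axis, of the coding-only peaks at the 5 loci with the highest geometric mean among loci shared by all 6 lists. Each point is 1 list and the line is the geometric mean, which ran from 13.5 in AMOT to 18.9 in IRX5. At IRX5 the 2 eIF3a lists, at 42.2 and 8.57, lay on either side of it.

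Few coding-only peaks were shared by every list. Joined where they overlapped on a strand, the peaks formed 10564 loci. At the deepest base of a locus, 7168 loci (67.9%) had a coding-only peak in 1 list alone, 1813 in 2 lists, 833 in 3, 425 in 4, 236 in 5 and 89 (0.842%) in all 6. When peaks of any kind at the same bases were counted, the loci seen in 1 list alone fell to 3570 (33.8%) and those seen in all 6 rose to 675 (6.39%). Many loci thus had a coding-only peak in 1 list and a peak of another kind in others. The 89 loci lay on 84 genes. Their exons had a median coding length of 1956 bases, 14 were in genes with 1 coding exon, 12 in first, 41 in internal and 22 in last coding exons, and the shared bases were 63.8% GC on average.

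Some loci were particular to 1 protein by rule, with overlapping coding-only peaks in both replicates and no peak of any kind in the other 4 lists. There were 45 such loci for METTL16, 46 for eIF3a and 147 for eIF3b, which is 5.91%, 8.20% and 13.4% of the loci shared by the replicates of that protein. Because the rule chose them by this pattern, the presence and absence are no finding. The first locus of each protein, ranked by the lower of its 2 folds, is printed in the same way, with capitals for the bases under a peak in both replicates.

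LINGO1, METTL16, exon 2, chr15:77615541-77615740, minus strand: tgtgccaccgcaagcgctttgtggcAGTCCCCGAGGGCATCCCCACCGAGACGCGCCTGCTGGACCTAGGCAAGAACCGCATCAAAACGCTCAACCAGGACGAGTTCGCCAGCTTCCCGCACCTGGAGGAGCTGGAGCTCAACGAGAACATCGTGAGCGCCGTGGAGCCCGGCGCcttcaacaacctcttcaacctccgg

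MINAR1, eIF3a, exon 2, chr15:79456542-79456741, plus strand: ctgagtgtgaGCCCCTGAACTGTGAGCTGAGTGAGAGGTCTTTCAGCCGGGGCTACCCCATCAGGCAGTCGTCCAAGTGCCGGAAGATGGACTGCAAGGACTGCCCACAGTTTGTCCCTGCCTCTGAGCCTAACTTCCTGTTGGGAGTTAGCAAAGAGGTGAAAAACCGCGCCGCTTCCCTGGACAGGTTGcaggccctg

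GPRC5D, eIF3b, exon 2, chr12:12949677-12949876, minus strand: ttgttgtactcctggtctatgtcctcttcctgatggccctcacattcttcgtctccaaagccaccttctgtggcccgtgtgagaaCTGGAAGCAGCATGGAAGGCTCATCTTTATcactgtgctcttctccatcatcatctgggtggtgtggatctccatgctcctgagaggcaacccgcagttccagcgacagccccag

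LINGO1, a leucine-rich repeat membrane protein of neurons, had folds of 181 and 174 in the METTL16 lists. ARTN, the neurotrophic ligand artemin, had 74.2 and 229, and GRIN2C, a subunit of NMDA receptors, had 46.4 and 202. Because the loci were ranked by the lower fold, values far above the METTL16 median folds of 2.94 and 3.30 follow from the rule. The 2 values of ARTN and of GRIN2C still differed several-fold from each other. The eIF3a loci were lower. MINAR1 had 22.3 and 33, and the zinc finger gene ZNF682 had 19.8 and 17.1. The eIF3b loci were GPRC5D, an orphan receptor, with 15.1 in replicate 1 and a geometric mean of 15.6 over both replicates, the TGF-beta family ligand GDF1 with 17.8 and 14.7, and GRIN3B, another NMDA receptor subunit, with 15.1 and 14.7. The GPRC5D peaks shared 30 bases, against 150 in LINGO1 and 181 in MINAR1. Mean GC of the shared bases was 68.5% over the 45 METTL16 loci, 52.5% over the 46 eIF3a loci and 56.4% over the 147 eIF3b loci.

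Coding-only peaks were narrow and sat inside long exons. Their median width per list was between 121 and 150 bases, against 181 to 211 for the other peaks, and the widest had 3112 bases. The exon that held a peak had a median coding length between 574.5 and 830 bases, whereas the median over all 125709 coding exons of the canonical transcripts of genes with a peak was 123 bases. The rule itself favours long exons, since a peak over a short exon runs into its neighbour and then has several blocks. Only between 0.920% and 1.65% of the coding-only peaks touched an edge of the coding part of their exon.

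To set this apart from the rule, each peak was compared with all places in its own transcript at which a peak of its width would fit within 1 coding exon off the start and stop codon. On average over the lists, 29.9% of the peaks lay in exons from 1000 to under 3000 coding bases, against 30.1% of the places, and 9.86% in exons of 3000 bases or more, against 10.1%. Exons from 200 to under 500 bases held 24% of the peaks and 22.6% of the places, with peaks above places in 6 of 6 lists. By exon class, 15.7% lay in first coding exons against 14.7% of places, 54.3% against 55.8% in internal and 22.1% against 21.7% in last coding exons. With the coding sequence cut into 5 equal parts, the part next to the stop codon held 20.1% of the peaks and 18.2% of the places, with peaks above places in 6 of 6 lists, and the middle part held 20.5% against 21.7%, with peaks below in 6 of 6. The mean position did not pass the test. It differed from that of the places by 0.48 ± 0.73 percentage points of the coding length (SD, n = 6 lists), toward the stop codon in 5 of 6 lists (exact sign-flip permutation test, two-sided, p = 0.188, adjusted p = 0.188 over 4 tests by the Benjamini-Hochberg method).

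The longest exons with a coding-only peak held few of them. TTN, the giant muscle protein titin, has an exon of 17106 coding bases (exon 326, chr2:178559311-178576416, minus strand) with 1 coding-only peak, in eIF3a replicate 2, at 6.73-fold. The 16734-base exon 7 of AHNAK2 (chr14:104938066-104954799, minus strand), a very large scaffold protein, held 1 in METTL16 replicate 2, at 19.1-fold, and 1 in eIF3b replicate 1, at 12.4-fold. The 15790-base exon 5 of C2orf16 (chr2:27566735-27582524, plus strand) held 1 in each eIF3a list, at 5.58-fold in replicate 1 and 13.5-fold in replicate 2.

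By contrast, STARD9, a kinesin-like protein of the mitotic spindle, carried the most coding-only peaks of any gene. It had 6 and 2 in METTL16, 18 and 17 in eIF3a and 16 and 17 in eIF3b, 96.1% of them in 1 exon of 10227 coding bases, with a median fold of 5.47. The eIF3 lists thus lay well above the METTL16 lists. EPPK1, the cytoskeletal linker epiplakin, has a single coding exon of 15264 bases and had 13 and 10 peaks in METTL16, 14 and 8 in eIF3a and 9 and 9 in eIF3b, with no separation of the proteins. This exon is built of near-identical repeats, so reads could be placed on more than 1 copy and the positions are uncertain. MKI67, the proliferation antigen Ki-67, had 12 and 2 in METTL16, 11 and 9 in eIF3a and 8 and 7 in eIF3b, at a median fold of 2.15. Its METTL16 replicates stood farther apart than any eIF3 pair. Most genes had few peaks, and between 70.2% and 78.6% of the genes of a list carried 1 coding-only peak.

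Bases inside coding-only peaks were richer in G and poorer in T than the rest of the same exon. Peak GC content was on average 61% against 59% in METTL16 replicate 1, 62.8% against 60.4% in replicate 2, 56.9% against 55.5% and 55.8% against 54.6% in eIF3a, and 58.8% against 56.6% and 55.9% against 54.7% in eIF3b. The peak was higher in 6 of 6 lists, by 1.76 ± 0.52 percentage points (SD, n = 6 lists, exact sign-flip permutation test, two-sided, p = 0.03125, the smallest p possible, adjusted p = 0.0417). Between 58.1% and 65.3% of single peaks lay above their own exon. The difference was also above 0 in every list both at the third codon position, by 1.39 to 2.44 points, and over the other two positions, by 1.14 to 2.49 points.

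Base by base, G rose by 1.02 to 1.95 points and T fell by 1.38 to 1.82 points in the 6 lists, whereas A and C went either way. The purine share, which is A and G together, was higher inside the peak in 6 of 6 lists, by 0.589 points in METTL16 replicate 2 and by 1.06 to 1.56 points in the other 5. Single bases, codons and short motifs are given as a description, with no test.

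**Figure D3:**
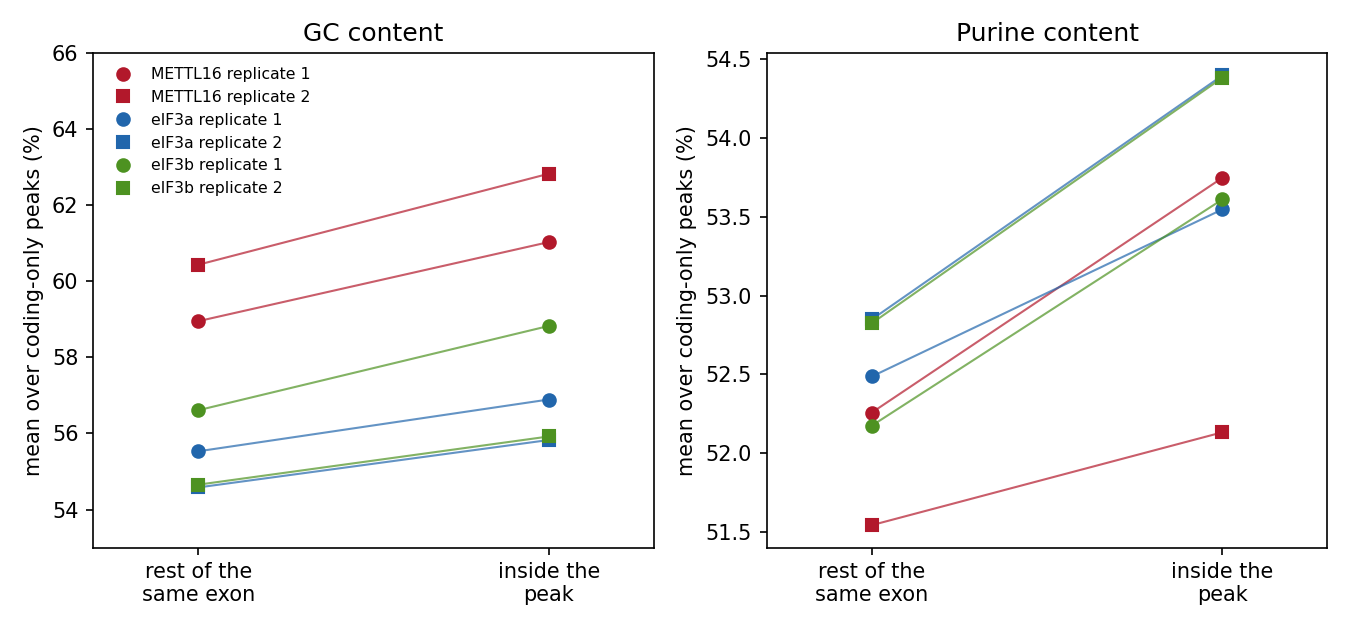
Mean GC content (left) and purine content (right), in percent, inside coding-only peaks and in the other coding bases of the same exon. Each line is 1 of the 6 lists. All lines rise toward the peak in both panels, and METTL16 lists have the highest GC.

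Among codons in frame, GAG, a codon for glutamate, differed most. It made up 5.66% of the codons inside peaks and 4.87% in the rest of the exon, and was higher in 6 of 6 lists. GCC (3.74% against 3.46%), GGG (2.21% against 1.94%) and GAA, the other glutamate codon (3.04% against 2.79%), were also higher in every list. ATG had the largest fall, from 1.83% in the rest of the exon to 1.51% inside peaks, but the rule keeps the start codon out of every peak. TTT (0.905% against 1.17%), ATT (0.787% against 1.03%) and TAC (1.01% against 1.24%) were lower in every list. In all, 15 of 64 codons were above in all 6 lists, and 12 of these end in G or C. Another 27 were above in no list, and 18 of these end in A or T. The 27 include the stop codon TAG, which did not differ in most lists.

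Short motifs were searched on the transcript strand in the central 150 bases of the coding-only peaks at least 150 bases wide, of which there were 914 to 1797 per list. They were set beside windows of 150 bases without any peak of that list from the same exons, a comparison added after the values were seen. GGAGGA was found in 20.4% of the peaks and 11% of such windows on average, and GAAGAA, a purine-rich hexamer known from exonic splicing enhancers, in 17.5% and 11.1%. Both were higher in the peaks than in these windows in 6 of 6 lists. GCCGCC was found in 12.2% and 8.72%, again higher in 6 of 6, and the run TTTTT in 2.43% and 6.72%, lower in 6 of 6. CAGCAG (18.3% against 18%), GGACT, a common context of m6A (14.5% against 13.5%), and CTGCTG (15.3% against 13.6%) differed less. Windows of all coding exons of genes with a peak, 73245 in number, held GGAGGA in 12.8%, GAAGAA in 13.9%, GCCGCC in 7.77%, CAGCAG in 15.3%, CTGCTG in 15.2%, GGACT in 14.6% and TTTTT in 7.40%. Against these windows of all coding exons, GAAGAA was higher in the peaks in 5 of 6 lists, and METTL16 replicate 2 was lower at 12.5%. The windows off the peaks had a GC content between 52.4% and 58.3%, below the 56.1% to 64.3% of the peak centres, and its part in the motif shares was not tested.

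ACAGAGA, the core of the U6 site of METTL16, was found in 2.28% and 1.68% of the METTL16 peaks, 3.01% and 3.72% of the eIF3a peaks and 2.99% and 3.31% of the eIF3b peaks, and in 2.23% of all coding windows. METTL16 had the lowest shares of the 3 proteins, and windows off the peaks in the same exons were lowest for METTL16 too, with 2.20% and 2.15% against 2.72%, 2.63%, 2.61% and 2.64% for the eIF3 lists. The longer TACAGAGAA, which contains it, was found in 4 peaks of each eIF3b list and in none of the other 4 lists.

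METTL16 coding-only peaks had the highest GC content. It was 60.9% and 62.7% in METTL16, 56.9% and 55.8% in eIF3a and 58.7% and 55.8% in eIF3b, so both METTL16 lists lay above the other 4. The differences of 5.51 points from eIF3a and 4.53 from eIF3b each gave p = 0.333, the smallest possible (exact permutation test, two-sided). The other peaks of the same lists followed the same order, with 58.5% and 60.3% in METTL16, 53% and 52.7% in eIF3a and 58.0% and 53.7% in eIF3b. The order of GC content was thus shared by the whole lists, and its part in the results on single loci was not tested.

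Fold enrichment of coding-only peaks was slightly below that of the rest of their list. The median was 2.94 against 3.14 in METTL16 replicate 1 and 3.30 against 3.43 in replicate 2. It was 2.74 against 3.03 and 2.29 against 2.82 in eIF3a, and 2.75 against 3.31 and 2.71 against 3.00 in eIF3b. The log2 ratio of the medians was -0.17 ± 0.10 (SD, n = 6 lists) and below 0 in 6 of 6 lists (exact sign-flip permutation test, two-sided, p = 0.03125, adjusted p = 0.0417). Among peaks of at least 160 bases, a comparison added after the values were seen, it was -0.0017, with an exact p of 1.

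Coding-only peaks were found again in the other replicate less often than other peaks. In METTL16 replicate 1, 1331 of 2528 (52.7%) were overlapped by at least 1 base by a peak of any kind of replicate 2, against 56.2% of all peaks of the list. In METTL16 replicate 2, 42.4% were found in replicate 1, against 54.7% of all peaks. For eIF3a, 31.7% of replicate 1 were found in replicate 2, against 39.3%, and 58.2% of replicate 2 in replicate 1, against 60.1%. For eIF3b, 48.1% of replicate 1 were found in replicate 2, against 59.6%, and 59.4% of replicate 2 in replicate 1, against 65.3%. Compared with the other peaks of their list, the share was lower in 6 of 6 lists, with a mean difference of -8.77 ± 5.23 percentage points (SD, n = 6 lists, exact sign-flip permutation test, two-sided, p = 0.03125, adjusted p = 0.0417). The 2 values of a protein come from the same pair of lists, so the 6 differences are not independent. The p-values of this comparison treat them as independent and are too small for that reason. Against other peaks of 1 block alone, the mean difference was -5.09 points and was above 0 in METTL16 replicate 1 and eIF3b replicate 2 (exact p = 0.188).

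Width went with this difference. Of coding-only peaks under 100 bases wide, 33.1% were found again on average over the lists, against 29.9% of other peaks of that width. From 100 to under 160 bases the shares were 43.9% and 39.7%, from 160 to under 250 bases 57.7% and 56.7%, and at 250 bases or more 78.0% and 80.7%. Coding-only peaks were below other peaks in 2, 1, 4 and 5 of the 6 lists in these classes. Within a class of width, coding-only peaks thus lay above other peaks on average except in the widest class, and no test was made there. With the width set to at least 160 bases, the difference over all peaks was -3.60 points (exact sign-flip permutation test, p = 0.125).

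**Figure D4:**
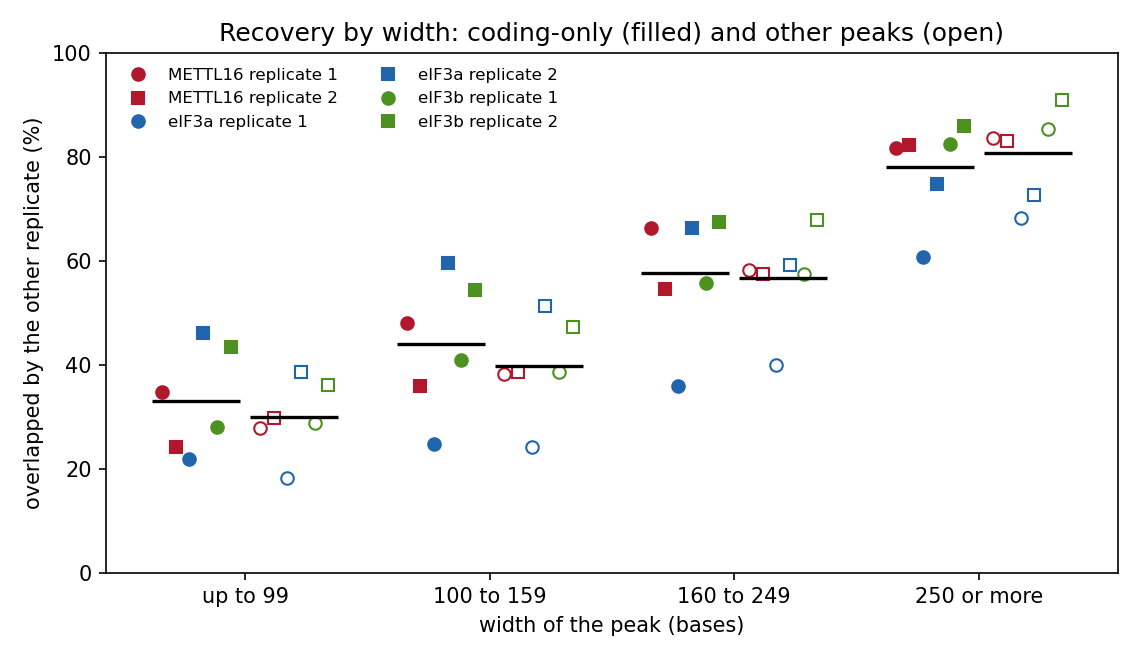
Share of peaks, in percent, overlapped by a peak of the other replicate of the same protein, by width in bases, for coding-only peaks (filled) and all other peaks (open). Points are the 6 lists and lines their means, which rose from 33.1% to 78.0% for coding-only peaks and from 29.9% to 80.7% for other peaks.

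The share of coding-only peaks found again moved with fold in different directions in the lists. Below a fold of 2, 47.3% were found in the other replicate on average, between 2 and 4, 50.2%, between 4 and 8, 50.9%, and at 8 or more, 41.2%. Other peaks reached 52.5%, 57.5%, 61.9% and 56.7% in the same classes. At a fold of 8 or more, coding-only peaks lay below other peaks in 6 of 6 lists. From under 2 to 8 or more, the share of coding-only peaks went from 46.3% to 57.6% and from 41.1% to 44.6% in the METTL16 lists. It went from 30.9% to 21.9% and from 60.4% to 32.9% in eIF3a, and from 45.9% to 38.5% and from 59.2% to 51.8% in eIF3b. The lower mean of the highest class thus came from the eIF3 lists, and the difference between proteins was not tested.

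Of the recovered coding-only peaks, many met a peak of another kind. In METTL16, 33.5% and 29.7% of the coding-only peaks of replicates 1 and 2 met a coding-only peak of the other replicate, and a further 19.2% and 12.7% met a peak of another kind alone. In eIF3a these shares were 16.16% and 33.6%, with a further 15.5% and 24.6%, and in eIF3b 35.1% and 35.2%, with a further 13.0% and 24.2%.

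Coding-only peaks were in many cases met more often by peaks of another protein than by those of their own partner list. METTL16 replicate 1 was met by eIF3b replicate 1 at 78.8% of its coding-only peaks and by eIF3b replicate 2 at 62.9%, above the 52.7% met by the second METTL16 replicate. METTL16 replicate 2 was met at 62.0% and 46.4% by the eIF3b lists, against 42.4% by its own partner. The eIF3b lists held 20832 and 20027 peaks, against 13199 and 13136 for METTL16, and the part of list size in these shares was not tested. eIF3a replicate 1 was met at 56.0% and 53.1% by the eIF3b lists and at 31.7% by eIF3a replicate 2, the list with the fewest peaks. Summed over the 4 pairs of lists, 44.4% of METTL16 coding-only peaks were met by eIF3a, against 51.5% of all METTL16 peaks. For METTL16 and eIF3b the shares were 62.1% against 69.4%, and for eIF3a and eIF3b 56.4% against 60.4%.

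**Figure D5:**
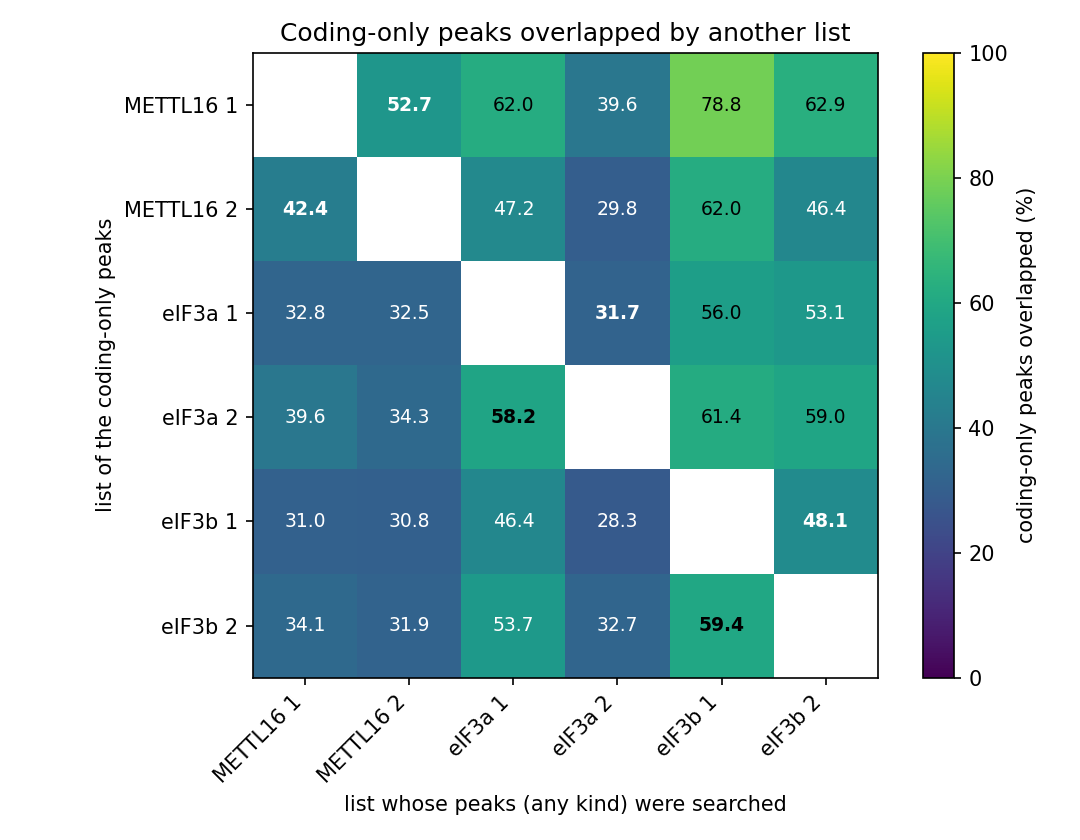
Share of the coding-only peaks of the list in each row, in percent, that were overlapped by at least 1 base by a peak of any kind of the list in each column. Pairs of the same protein are in bold. The highest value, 78.8%, joins METTL16 replicate 1 with eIF3b replicate 1.

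The Jaccard index, which is the shared bases over all bases of 2 lists, was computed from the coding-only peaks alone. It was 0.198 between the METTL16 replicates, 0.127 between those of eIF3a and 0.221 between those of eIF3b, with a mean of 0.182 ± 0.0493 (SD, 3 pairs). The 12 pairs of different proteins had a mean of 0.151 ± 0.0447, and 3 of them reached at least the mean within proteins. The highest index of any pair, 0.241, joined eIF3a replicate 1 and eIF3b replicate 2. The difference of 0.031 was the largest of the 15 ways to pair the lists (one-sided exact permutation test, p = 0.0667, and no smaller p is possible here). Only between 2.74% and 7.54% of the coding-only peaks that overlapped one of another list had the same start and end in both.

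At the level of genes, 642 genes had overlapping coding-only peaks in both METTL16 replicates, which is 14% of the 4587 genes with a peak of any kind in both. For eIF3a this was 446 of 4564 genes (9.77%), and for eIF3b 852 of 6447 (13.2%). Of these genes, 126 were common to the 3 proteins, while 298 were counted for METTL16 alone, 156 for eIF3a alone and 440 for eIF3b alone. A gene counted for 1 protein could still carry a coding-only peak in 1 replicate of another, so these counts do not show specificity. The same overlap over all genes with a peak was not set beside them. Whether coding-only peaks were shared more or less than other peaks cannot be read from them.

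Several gene groups carried shared coding-only peaks at other rates than those 3 shares. The groups were drawn up with earlier results of these data known, and no test was made. The rule favours genes with long exons, and the part of exon length in these shares was not tested. Genes with 1 coding exon, in which every coding peak has 1 block by construction, had them at 86 of 210 genes (41%) in METTL16, 40 of 136 (29.4%) in eIF3a and 92 of 262 (35.1%) in eIF3b. Among chromatin regulators, the counts were 11 of 25 (44%), 12 of 29 (41.4%) and 12 of 29 (41.4%). C2H2 zinc finger genes, taken by symbol, had 32 of 115 (27.8%), 36 of 187 (19.3%) and 81 of 253 (32%). Zinc finger genes are a large family with similar sequences, so reads could be shared between members. Giant scaffold proteins had 4 of 16 (25%), 4 of 15 (26.7%) and 11 of 17 (64.7%), and m6A writers and readers had 4 of 13 (30.8%), 5 of 15 (33.3%) and 6 of 18 (33.3%).

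Among chromatin regulators, SRCAP, the ATPase of a histone exchange complex, had 4 loci shared by the METTL16 replicates, 4 by those of eIF3a and 0 by those of eIF3b. Its highest peak lay in exon 25. It had a fold of 35.8 in METTL16 replicate 1 (chr16:30724007-30724217, plus strand) and 42.9 in replicate 2, and no coding-only peak of the eIF3 lists overlapped it. Whether the eIF3 lists had a peak of another kind there is not given here. In exon 34 of SRCAP, peaks recurred across proteins at folds between 1.83 and 5.79. KMT2C and KMT2A, histone H3 lysine 4 methyltransferases, had 0, 4 and 3, and 1, 2 and 3 such loci in METTL16, eIF3a and eIF3b.

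Among m6A genes, ZC3H13, a subunit of the m6A writer complex, had coding-only peaks in exon 12 in METTL16 alone, at 91.4-fold in replicate 1 (chr13:45975367-45975636, minus strand) and 13.5-fold in replicate 2. Whether the eIF3 lists had peaks of another kind in exon 12 is not given here. The coding-only peaks of ZC3H13 in exons 14 and 15 had folds between 1.90 and 4.11 and came from lists of all 3 proteins. RBM15B and RBM15, RNA-binding subunits of the same complex, had 1, 1 and 2, and 1, 1 and 1 shared loci. Among zinc finger genes, ZNF865 had 3, 2 and 3 shared loci, ZNF407 had 0, 3 and 5, and ZNF646 had 2, 2 and 4. ZNF407 had no coding-only peak in either METTL16 list and 8, 3, 5 and 8 in the 4 eIF3 lists.

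Among giant scaffolds, PLEC, the cytoskeletal linker plectin, had 2, 2 and 1 shared loci, PPL, or periplakin, had 3, 1 and 1, and DYNC1H1, the heavy chain of cytoplasmic dynein, had 0, 1 and 2. Folds in DYNC1H1 stayed between 1.18 and 1.79. Of the genes with 1 coding exon, AHDC1 had 2, 3 and 2 and EPPK1 had 6, 3 and 3.

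SR-related splicing proteins lay above the share over all genes in METTL16. Their 1 gene of 16 in eIF3a is too few to show a lower share. Insulin and mTOR signalling genes lay near the shares over all genes. SR-related splicing proteins had 5 of 17 genes (29.4%) in METTL16, 1 of 16 (6.25%) in eIF3a and 3 of 19 (15.8%) in eIF3b. SRRM2 had 2 shared loci for each protein, with THRAP3 (1, 0 and 1) and SRSF4 (1, 0 and 0) below it. Insulin and mTOR signalling genes had 2 of 14 (14.3%), 1 of 13 (7.69%) and 2 of 15 (13.3%). IRS1, the insulin receptor substrate, had 2, 1 and 2 shared loci in its coding exon of 3726 bases, at folds from 1.43 to 6.70, and IGF2R (0, 0 and 1) and MTOR (1, 0 and 0) had fewer. Atypical cadherins, few in number, were above those shares in each protein, with shared peaks at 1 of 5 (20%), 2 of 4 (50%) and 4 of 5 genes (80%), led by CELSR3 with 0, 1 and 2 loci, FAT1 with 1, 0 and 2 and CELSR2 with 0, 1 and 1. Of clustered protocadherins, none had one. Peaks of any kind in both replicates were found on 0 of them in METTL16, 1 in eIF3a and 19 in eIF3b. With a share of 13.2% over all genes in eIF3b, so few genes cannot show a lower share.

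Liver plasma protein genes had shared coding-only peaks at 4 of 17 (23.5%), 1 of 4 (25%) and 4 of 14 genes (28.6%), against 14%, 9.77% and 13.2% over all genes. F5, coagulation factor V, had 3 and 0 coding-only peaks in METTL16, 4 and 5 in eIF3a and 3 and 4 in eIF3b, most of them in exon 13, which has 2821 coding bases. In that exon a peak at chr1:169540975-169541605 (minus strand) reached 82.1-fold in METTL16 replicate 1, while METTL16 replicate 2 had no peak of any kind on the gene. The eIF3 peaks that overlapped it had folds of 1.88 in eIF3a replicate 2 and of 12.5 and 15 in eIF3b replicates 1 and 2. In eIF3a replicate 1 the overlapping peak was 1321 bases wide, with a fold just above that of both eIF3b lists. FGA, the fibrinogen alpha chain, and F2, prothrombin, had 1, 0 and 1 shared loci each, at folds from 1.39 to 2.28 and from 1.26 to 1.32.

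The genes of the proteins themselves were looked up as well. None of the 13 genes of eIF3 subunits had a shared coding-only peak, with peaks of any kind in both replicates at 7, 3 and 6 of them. With shares of 14%, 9.77% and 13.2% over all genes, so few genes cannot show a lower share. Each stable line also expressed a tagged copy of its own protein. Coding reads of that copy and of the endogenous mRNA cannot be told apart in the lists of that line. METTL16 had no coding-only peak in its own lists. In exon 10 of METTL16, they were found at 2.35- and 2.02-fold in the eIF3a lists (chr17:2420218-2420398 and chr17:2420278-2420398, minus strand) and at 7.93-fold in eIF3b replicate 1 (chr17:2420128-2420458). EIF3A had 1 in METTL16 replicate 2 at 1.45-fold and 1 in eIF3a replicate 2 at 1.32-fold, both in exon 12, and EIF3B had 1 in eIF3a replicate 2 at 1.34-fold in exon 1. Outside the rule, EIF3A had a peak of several blocks in each of the 6 lists, and METTL16 had peaks in the 3′ UTR in each. EIF3B had peaks of other kinds in every list but eIF3a replicate 2. MAT2A, whose mRNA is a known METTL16 target through its 3′ UTR, had no coding-only peak in any of the 6 lists. Its peaks had several blocks, lay in the 3′ UTR or covered the start codon.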

How the data were processed

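RNA of 6 RIP and 6 input samples was sequenced from stranded libraries after ribosomal RNA depletion. Alignment to GRCh38 was done by the authors in STAR, and exomePeak with its default options gave the peaks. Versions, annotation and the pairing of inputs were not given in the sources used here. Each RIP sample had its own list. For each peak the authors deposited exonic blocks, a gene name, a p-value (at most 0.01), a log10 p-value and false discovery rate (a score), and the fold enrichment (the ratio of RIP to input). These were used only to rank, filter or describe peaks. The depth is unknown.

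Peaks were placed on GENCODE 44 with Python 3.11.15, pandas 2.3.3, numpy 2.4.6 and pysam 0.24.0. Of 10830 gene names, 10314 matched a current and 454 an older symbol, and 62 did not match on the peak's chromosome and strand. Overlap meant at least 1 base on the same strand. GC comparisons needed 30 coding bases outside the peak. Values were compared over lists with exact sign-flip or permutation tests, and p-values of the 4 sign-flip tests were adjusted by the Benjamini-Hochberg method. Each sign-flip test treats the 6 lists as independent, although 2 replicates came from each of 3 proteins and lists shared peaks. The study calls the replicates biological, and no source used here says that they were separate cultures, so p-values measure the spread between these samples. The rule for named genes took the 5 loci of all 6 lists with the highest fold, the first 3 loci of each protein, the 3 genes with most peaks, up to 3 genes per group, the genes of the proteins and MAT2A, and the 3 longest exons with a coding-only peak. One locus that the rule names is not reported here. Members and gene groups were chosen with earlier results of these data known. Scripts were tested on simulated data. Alternatives were a fold of at least 4, only the 5000 peaks of smallest p-value in a list, any coding transcript, leaving out a replicate, 50% overlap, other peaks of 1 block, 1 peak per gene and a replicate block.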

Additional observations from a re-analysis of the deposited data

How the results depend on the processing

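The GC difference within exons kept its direction and exact p = 0.03125 under each alternative that kept the 6 lists, from 1.73 to 2.08 points. Without 1 list it was 1.63 to 1.86, and 5 lists cannot give a p under 0.0625. The recovery difference kept its direction but not its call with a fold of at least 4 (-5.35), the 5000 peaks of smallest p-value (-4.17), 50% overlap (-5.93), other peaks of 1 block (-5.09) and, chosen after seeing the data, widths of at least 160 bases (-3.60), and was -10.3 to -7.92 without 1 list. Its 2 values per protein come from 1 pair of lists, so the main call itself rests on values that are not independent. The fold difference was -0.31 against other peaks of 1 block and -0.17 against all other peaks, both with exact p = 0.03125. It was close to 0 at a fold of at least 4 (0.00068, exact p = 1), a filter on the tested value that narrows both groups by construction. It lost its call with 5000 peaks (-0.094) and at 160 bases (-0.0017), and was -0.19 to -0.14 without 1 list. Genes with shared peaks in METTL16, eIF3a and eIF3b numbered 261, 88 and 224 at a fold of at least 4 and 188, 83 and 144 with 5000 peaks. With 1 replicate left out, a count for the protein concerned is that of 1 list by construction, so the ranges were 642 to 2077, 446 to 2551 and 852 to 2329. The METTL16 minus eIF3a share of coding-only peaks, 3.73 points, was 2.19 without eIF3a replicate 2 (exact p = 0.667) and 6.32 at a fold of at least 4, where METTL16 minus eIF3b, 3.47 points, was 5.68. The eIF3a minus eIF3b share of coding-only peaks, -0.264 points, was 1.28 without eIF3a replicate 2 and 0.279 without eIF3b replicate 2, ranging from -1.81 to 1.28, and their GC difference, -0.980, was 0.475 without eIF3b replicate 1, ranging from -2.43 to 0.475. The Jaccard difference was 0.00814 without METTL16 replicate 2, 0.0157 without eIF3b replicate 1 and 0.0756 without eIF3a replicate 1, and its p was 0.133 with any coding transcript and 0.2 with 5000 peaks. With the replicate block it was 0.0328 over same-number pairs, and the share differences were 3.73, 3.47 and -0.264 points with exact p = 0.5, 0.5 and 1. Pairs of different proteins had a mean index of 0.149 (0.0855 to 0.196) with the same and 0.153 (0.107 to 0.241) with different replicate numbers. Whether lists of the same number shared a batch was not tested. Depth limits are unknown.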
